A study of Drosophila melanogaster with 7 samples.

Results

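The regions described here are broad peaks of H3K4me3, the histone mark of active promoters, that hold the trithorax group protein ASH2 in wing imaginal discs of Drosophila larvae of the third instar. They were chosen by a rule on the deposited peak lists: an H3K4me3 peak of 1362 bp or wider that overlaps an ASH2 peak by 1 bp or more and overlaps no H3K27me3 peak. Of 5868 H3K4me3 peaks, 587 reached that width, and 460 of them (7.84% of the list) met the whole rule. The remaining wide peaks were 55 with neither ASH2 nor H3K27me3 and 72 with H3K27me3, of which 63 also held ASH2. The comparison group comprised the 4169 narrower H3K4me3 peaks with ASH2 and without H3K27me3. Width, the presence of ASH2 and the lack of H3K27me3 were therefore set by the choice of members, and their values are a description.

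Trimethylation of H3 at lysine 4 is laid down by SET1 and trithorax family methyltransferases in complexes that contain ASH2. The mark sits on the nucleosomes at and just downstream of active transcription start sites. RNA polymerase II is phosphorylated at serine 5 of its C-terminal repeat (Ser5P) around initiation and at serine 2 (Ser2P) during elongation, and H3K36me3 is deposited over the bodies of transcribed genes, whereas H3K27me3 is the Polycomb mark. A wide H3K4me3 region can therefore span a promoter and the start of a gene body, or several starts that lie close together.

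Chromatin of whole discs was immunoprecipitated with antibodies to ASH2, H3K4me3, H3K27me3, H3K36me3, Ser2P and Ser5P, with 1 library for each target and 1 of input DNA, which was not analysed here. All groups share the same tissue and stage, the labels name no strain, genotype or treatment, and the discs are a mixture of cell types. ASH2 is the target as labelled, but the catalogue number given for that antibody belongs to a product against the HA tag, and the labels name no tagged line. The peak lists hold positions on dm3 without height or read depth, and with 1 library per target no difference below could be tested against replicates. Exact (Clopper-Pearson) 95% intervals cover the counting of peaks only, and the range over the 5 chromosome arms 2L, 2R, 3L, 3R and X stands for the spread within a list.

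The broad peaks with ASH2 had a median width of 1584 bp (quartiles 1454 and 1837, widest 3820 bp), and the narrower peaks one of 799 bp (596 and 992). They overlapped elongating polymerase and H3K36me3 more often than the narrower peaks did. Ser2P was present at 65.0% of the broad peaks (299 of 460, 95% interval 60.4 to 69.4, arms 45.3 to 78.3) and at 27.1% of the narrower ones (25.8 to 28.5, arms 21.5 to 31.1), a difference of 37.9 percentage points (33.3 to 42.5). H3K36me3 was present at 73.3% (69.0 to 77.3) against 40.9% (39.4 to 42.5), a difference of 32.3 points. Among all 5868 H3K4me3 peaks the shares were 32.1% for Ser2P and 45.8% for H3K36me3. Both differences lay above 0 on 5 of 5 arms, from 23.8 to 47.2 points for Ser2P and from 26.5 to 37.7 points for H3K36me3.

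The initiating form of polymerase showed a smaller difference. Ser5P was present at 57.4% of the broad peaks (264 of 460, 52.7 to 62.0) and at 39.0% of the narrower ones (37.5 to 40.5), 18.4 points apart (13.6 to 23.1, arms 10.2 to 23.9), against 37.3% of all H3K4me3 peaks. A polymerase peak of either form was found at 77.0% of the broad and 49.99% of the narrower peaks, against 51.3% of all H3K4me3 peaks.

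The shares varied along the whole range of widths and not only at the width of the rule. Among peaks with ASH2 and without H3K27me3, Ser2P was present at 6.99% of peaks under 500 bp, 43.7% of peaks of 1100 to 1361 bp (39.7 to 47.8), 62.1% of those of 1362 bp to under 1600 bp (55.6 to 68.3) and 79.0% of the 81 peaks of 2000 bp or wider (68.5 to 87.3). H3K36me3 was present at 2.68% in the narrowest class, 67.1% in the class just below the rule (63.2 to 70.9) and 70.0% in the class just above it (63.8 to 75.7), and the last intervals overlap. Ser5P was flatter, at 33.8% in the narrowest class, 49.5% and 57.1% on the sides of the rule and 67.9% in the widest. Against the class of 1100 to 1361 bp alone, the broad peaks as a whole were 21.3 points higher for Ser2P, 7.90 points for Ser5P and 6.14 points for H3K36me3. Within 10 bp of the rule's width there were 10 peaks just inside and 11 just outside. Of these, 5 and 2 overlapped Ser2P, 8 and 7 Ser5P, and 6 and 8 H3K36me3, with ASH2 over a mean of 43.3 and 44.2% of bases.

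**Figure D1:**
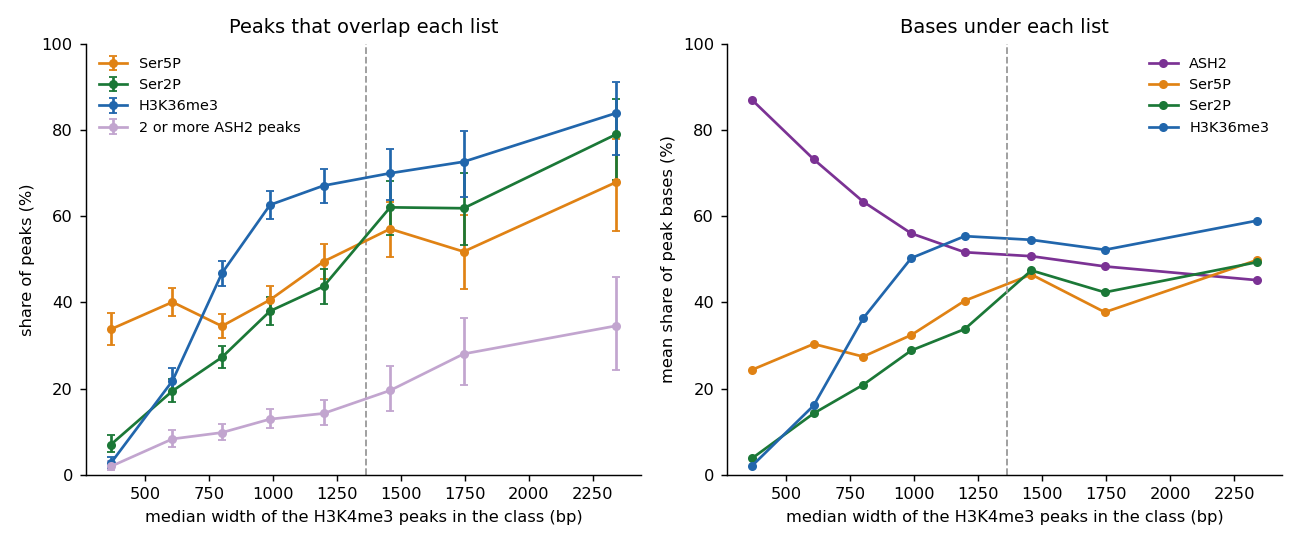
Left, share of H3K4me3 peaks with ASH2 and without H3K27me3 that overlap Ser5P, Ser2P, H3K36me3 or hold 2 or more ASH2 peaks (%), against the median width of each of 8 width classes (bp), with exact 95% intervals. Right, mean share of peak bases under each list (%). The dashed line marks 1362 bp. The overlap shares are lowest in the narrowest class and highest in the widest, whereas the base share under ASH2 falls from 87.0% to 51.7% before it and ends at 45.2%.

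By bases, ASH2 took up a smaller part of the broad peaks and the polymerase forms and H3K36me3 a larger part. ASH2 covered a mean of 49.0% of the bases of a broad peak (median 45.2%) and 65.9% of a narrower one (median 70.0%), lower on 5 of 5 arms by 12.1 to 24.1 points. Ser2P covered 46.2% against 20.4%, H3K36me3 54.6% against 32.4% and Ser5P 44.4% against 30.5%, each higher on 5 of 5 arms. In a window of 600 bp at the peak centre, which is the same length for every peak, the means were 49.3% against 64.2% for ASH2, 49.7% against 22.3% for Ser2P, 56.3% against 36.3% for H3K36me3 and 45.8% against 31.2% for Ser5P. This window reaches past peaks under 600 bp, and against narrower peaks of at least 700 bp the difference was 4.78 points in place of 19.9 for H3K36me3 and -9.83 in place of -15.0 for ASH2. The order of the groups was the same in the outermost 300 bp at each end. In the central window, the ASH2 difference from all narrower peaks ran from -25.5 to -2.81 points over arms. It was smallest on 2R (60.9 against 63.7%).

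The base share of H3K36me3 was close in the broad peaks and in the class just below them, 54.6% and 55.4%, so the order of the groups in that measure was turned round when only peaks of 1100 bp or wider were compared. The base share of Ser2P was 46.2% in the broad peaks and 33.8% in the class just below, and that of ASH2 49.0% and 51.7%. Within the 460 broad peaks, width bore little relation to any base share (Spearman's rho from -0.04 to -0.01 for the 4 lists, a description over peaks of the same libraries), whereas within the 4169 narrower peaks rho was -0.42 for ASH2 and 0.48 for H3K36me3.

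Where a partner was present at a broad peak, it usually covered most of it. Ser5P then covered a median of 92.8% of the bases (264 peaks, lower quartile 56.5%), H3K36me3 85.4% (337 peaks) and Ser2P 78.6% (299 peaks). The narrower peaks gave 87.1, 84.1 and 81.9%. The groups therefore differed more in how many peaks held a partner than in how much of such a peak it covered.

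**Figure D2:**
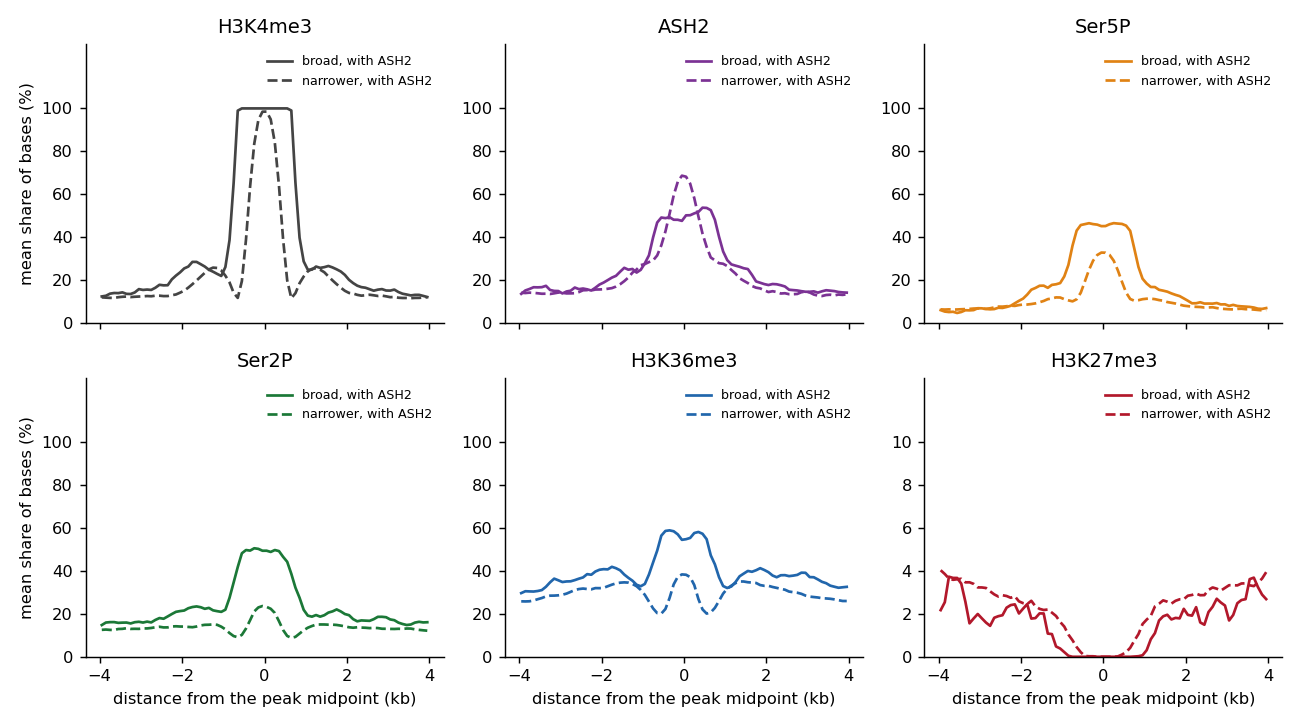
Mean share of bases under each list (%) against distance from the H3K4me3 peak midpoint (kb, bins of 100 bp), for 460 broad peaks (solid) and 4169 narrower peaks (dashed) with ASH2 and without H3K27me3. The H3K27me3 panel has its own axis. ASH2 forms a single summit at the centre of the narrower peaks and a lower plateau over the broad ones, and Ser5P, Ser2P and H3K36me3 lie higher over the broad peaks.

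A broad peak held more ASH2 in absolute terms. The bases under ASH2 came to a mean of 837 bp per broad peak (SD 471, n = 460 peaks) and 485 bp per narrower peak (SD 257, n = 4169 peaks). Most broad peaks held a single ASH2 peak: 346 had 1, 99 had 2, 14 had 3 and 1 had 4. At least 2 were found in 24.8% of them (20.9 to 29.0, arms 19.8 to 27.8) and in 9.55% of the narrower peaks (8.67 to 10.5), against 9.59% of all H3K4me3 peaks. Per kb of H3K4me3 the order was the opposite, 0.746 against 1.40 ASH2 peaks, a measure that falls with width because the rule asks for at least 1 ASH2 peak in each. ASH2 peaks at broad H3K4me3 were themselves somewhat wider, with a median of 782 bp (quartiles 460 and 1139) against 640 bp (393 and 985).

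Mean ASH2 cover over all broad peaks was 49.3% in the central 600 bp and 48.8% in the outer 300 bp at each end. The arms differed in direction. Cover was higher in the centre than at the ends on 2R (60.88 against 45.01%) and 2L (56.77 against 51.16%). It was lower in the centre on X (36.03 against 47.3%), 3L (49.81 against 52.41%) and 3R (46.25 against 48.99%). Single ASH2 peaks often lay off the midpoint. The midpoint of an ASH2 peak was a median of 521 bp from the H3K4me3 midpoint, against 230 bp in narrower peaks, where there is less room. ASH2 was found in the outermost 300 bp of 1 end in 61.5% of the broad peaks (283 of 460), of both ends in 28.7% and of neither end in 9.78%. In narrower peaks of 600 bp or more, whose end windows lie closer together, the shares were 47.9, 51.8 and 0.257%. The central 600 bp were free of ASH2 in 26.1% of the broad peaks (120 of 460, 22.1 to 30.4) and in 4.73% of the narrower ones. ASH2 covered a whole broad peak in 22 cases (4.78%) and at least 90% of it in 48 (10.4%), against 19.1 and 30.3% of the narrower peaks. Among all H3K4me3 peaks, with or without ASH2, these shares were 15.0 and 23.9%.

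The 114 broad peaks with 2 or more ASH2 peaks were wider than the 346 with 1 (median 1657 against 1564 bp). Their ASH2 peaks were parted by a median of 224 bp (upper quartile 552, 130 gaps) and spanned a median of 1856 bp from the first to the last, so that ASH2 reached both ends in 71.1% of them, against 14.7% of those with 1. Ser5P was more frequent with 2 or more ASH2 peaks (69.3%, 59.97 to 77.6, against 53.5%, 48.1 to 58.8). H3K36me3 was less frequent (64.9%, 55.4 to 73.6, against 76.0%, 71.2 to 80.4), as was Ser2P (58.8 against 67.1%), and for both of these marks the intervals overlap. By mean base share, Ser5P was close in these groups (45.4 against 44.1%), whereas Ser2P covered 37.2 against 49.2% and H3K36me3 44.8 against 57.9%.

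Pooled over all broad peaks, the bases under ASH2 and the other bases differed in their cover by the other lists. Of the 385 kb under ASH2 in all broad peaks, 50.9% lay under Ser5P, 37.6% under Ser2P and 39.4% under H3K36me3. Of the 406 kb not under ASH2, 38.9% lay under Ser5P, 54.7% under Ser2P and 69.9% under H3K36me3. In these pooled bases, Ser5P was denser under ASH2, and Ser2P and H3K36me3 outside it. The narrower peaks had the same order, with 38.5, 19.8 and 27.3% under ASH2 and 21.9, 30.5 and 58.1% outside it. Peaks with more ASH2 give more of the bases under it, so the pools mix differences within peaks and between them. Over the 460 broad peaks, the base share of ASH2 had Spearman's rho of 0.17 with that of Ser5P, -0.20 with Ser2P and -0.33 with H3K36me3.

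H3K36me3 beside a peak was used to give it a direction, since the mark is deposited over gene bodies. No gene annotation was used, so the gene to which such a flank belongs is not known. Of the broad peaks, 218 (47.4%) had H3K36me3 within 1 kb of 1 edge alone, 156 (33.9%, 29.6 to 38.4) on both sides and 86 (18.7%) on neither. Of the narrower peaks, 21.5% (20.3 to 22.8) had it on both sides and 31.4% on neither. When the 218 broad peaks were turned so that the H3K36me3 flank came last, ASH2 covered 62.0% of the bases before the midpoint and 35.7% after it, and it was denser before the midpoint on 5 of 5 arms, by 20.04 to 31.4 points. There was more ASH2 on the side away from H3K36me3 in 152 peaks, more on the side toward it in 54 and as much on both in 12, which makes 73.8% of the unequal ones (67.2 to 79.6).

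Over 10 equal parts of these turned peaks, ASH2 went down from 74.3% in the second part to 31.1% in the last. Ser2P went the other way, from 24.4% in the first part to 56.8% in the eighth, and was denser toward H3K36me3 on 5 of 5 arms (44.3% before and 55.0% after the midpoint). Ser5P was level, at 49.1 and 48.0%. The 1963 narrower peaks with H3K36me3 on 1 side had slopes in the same directions, with ASH2 at 74.6 and 50.2% before and after the midpoint. Where ASH2 reached 1 end and H3K36me3 flanked 1 side, they lay on opposite sides in 84.6% of the broad peaks (126 of 149, 77.7 to 89.96, arms 77.5 to 90.3) and 85.5% of the narrower ones (688 of 805), whose intervals overlap.

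**Figure D3:**
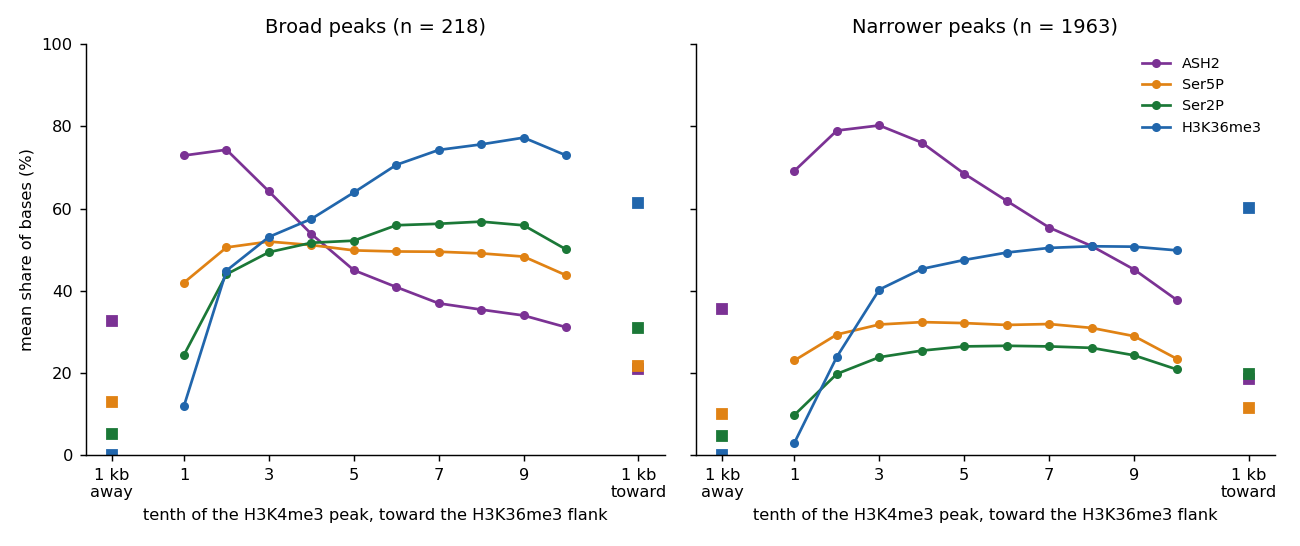
Mean share of bases (%) under ASH2, Ser5P, Ser2P and H3K36me3 in 10 equal parts of H3K4me3 peaks that had H3K36me3 within 1 kb of 1 edge alone, turned so that this flank is on the right. Left, 218 broad peaks, and right, 1963 narrower peaks. Squares give the 1 kb outside each edge. ASH2 is lower and Ser2P higher toward the H3K36me3 side, and Ser5P is level apart from the outermost parts. The H3K36me3 curve follows from the way the peaks were turned.

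The H3K36me3 list rarely spanned an H3K4me3 peak. None of the 337 broad peaks with H3K36me3 lay wholly within an H3K36me3 peak, which allows a share of up to 0.890% by the limit of 3 counts and 1.09% by the exact interval, and this was so for 12 of the 2689 H3K4me3 peaks of any kind with H3K36me3 (0.446%). By contrast, 67 of the 264 broad peaks with Ser5P (25.4%) and 18 of the 299 with Ser2P (6.02%) had no edge of that list inside. In 247 broad peaks a single edge of an H3K36me3 peak fell inside, a median of 226 bp from the nearer H3K4me3 edge (quartiles 120 and 615). In the narrower peaks that distance was 142 bp (102 and 203, 1569 peaks). H3K36me3 covered 31.3% of bases within 500 bp outside an edge of the broad peaks, 40.2% at 500 to 1000 bp, 38.6% at 1 to 2 kb and 29.9% at 2 to 5 kb.

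By combination, the commonest state of the broad peaks was the presence of all 3 other active lists. Ser5P, Ser2P and H3K36me3 occurred together in 172 of 460 (37.4%, 33.0 to 42.0, arms 27.4 to 51.1). They did so in 8.25% of the narrower peaks (7.43 to 9.13) and 10.75% of all H3K4me3 peaks. Next among the broad peaks came Ser2P with H3K36me3 but without Ser5P at 17.0% (78 peaks), and H3K36me3 alone at 14.1% (65 peaks). The commonest state of the narrower peaks, none of the 3 lists (29.4%), held 8.91% of the broad ones (41 peaks, 6.47 to 11.9), and Ser5P alone 7.17% against 19.2%. None of the 3 was found at 27.6% of all H3K4me3 peaks. A wider peak has more room for an overlap. Among the narrower peaks, the median width was 1030 bp with all 3 lists and 608 bp with none. ASH2 covered most of the broad peaks with Ser5P alone (mean 69.4%, 33 peaks) and least of those with Ser2P and H3K36me3 but no Ser5P (35.2%). Those with all 3 lay between (52.1%).

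The 41 broad peaks without Ser5P, Ser2P or H3K36me3 were not all far from these lists. Within 1 kb of an edge, 26 of them (63.4%, 46.9 to 77.9) had at least 1 of the 3, most often H3K36me3 (21 peaks, 51.2%). Both shares were lower than at the other broad peaks, where 410 of 419 (97.9%) had at least 1 and 84.2% had H3K36me3. Their median width was 1598 bp, and 13 of 41 (31.7%) had H3K27me3 within 5 kb, against 33.2% of the other broad peaks. On X lay 15 of the 41 (36.6%, 22.1 to 53.1), against 21.7% of the other broad peaks (17.9 to 26.0).

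Single broad peaks showed how these shares combine. The widest, on chromosome 2L from 12093742 to 12097561 (3820 bp), carried Ser5P over 69.7%, Ser2P over 63.1% and H3K36me3 over 90.1% of its bases, with 2 short ASH2 peaks over 24.6%. One of those lay at its left end, and the other lay beyond the right ends of the Ser5P and Ser2P peaks. H3K27me3 peaks lay to its left. The nearest ran from -3189 to -2355 bp from the midpoint, and the left edge of the broad peak was at -1910 bp. Next in width was a peak on 3L from 5802889 to 5806224 (3336 bp), which was almost filled by Ser5P (92.7%) and Ser2P (84.2%), with 2 ASH2 peaks over 59.8% and H3K36me3 over 52.4%. The third, on 2R from 4786952 to 4790219 (3268 bp), had ASH2 mostly to the right (66.7%) and Ser5P, Ser2P and H3K36me3 (62.3, 60.9 and 53.4%) in its left part. ASH2 alone lay over most of its right part.

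The fourth, on X from 4009841 to 4012931 (3091 bp), held a single ASH2 peak in its middle (31.2%), Ser5P over its left part (60.1%), Ser2P over its right part (36.04%) and an H3K36me3 peak at each end (67.0%). A peak on 3L from 19555735 to 19558729 (2995 bp) was the widest one wholly under ASH2, with 2 Ser5P peaks (64.2%), a small Ser2P peak (18.0%) and no H3K36me3. The next widest of the 22 wholly under ASH2 lay on X from 4541930 to 4543933, without Ser5P but with Ser2P over 66.5% and H3K36me3 over 83.7%. After it came one on 2R from 7780786 to 7782743, with Ser5P over 98.2%, Ser2P over 78.1% and H3K36me3 over 90.6%. The peak with 4 ASH2 peaks, on 3R from 17048585 to 17050776 (2192 bp), had ASH2 over 72.4% and Ser5P over 62.5% of its bases. It also held 2 Ser2P peaks over 67.1% and H3K36me3 over 16.6%. Of its ASH2 peaks, 1 ran only from 438 to 461 bp right of the midpoint, and another began beyond the left end. At the width of the rule, the narrowest broad peak lay on 3R from 23772399 to 23773760, with 2 ASH2 peaks, Ser5P over 93.5% and neither Ser2P nor H3K36me3. The next, 1364 bp wide, spanned 1474858 to 1476221 of that arm, with ASH2 over 15.0% of its bases. Just outside were 2 peaks of 2R, at 4802071 to 4803431 with ASH2 over 30.9% and at 13422072 to 13423431 with ASH2 over 50.9%.

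**Figure D4:**
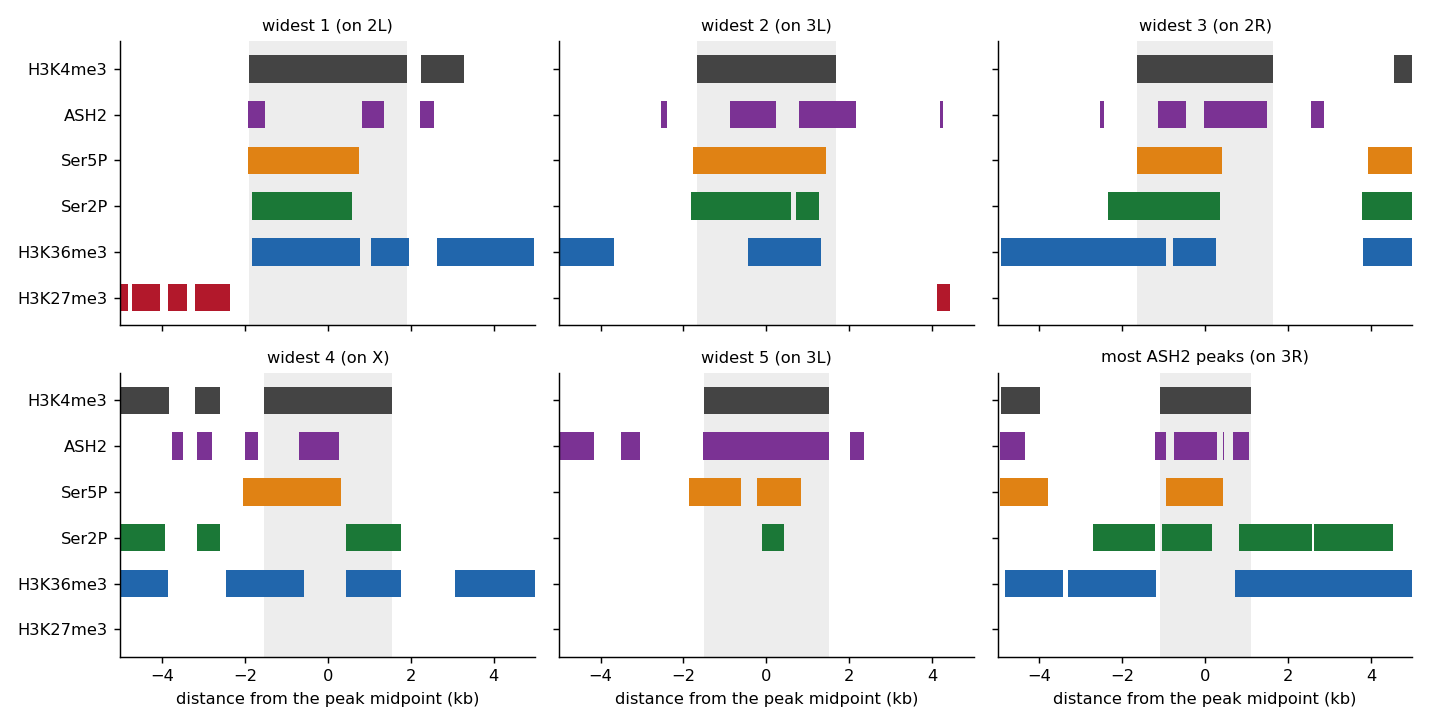
Peaks of the 6 lists within 5 kb of the midpoint (kb) at the 5 widest broad H3K4me3 peaks with ASH2 and at the one with the most ASH2 peaks. The grey band is the broad H3K4me3 peak, 3820, 3336, 3268, 3091, 2995 and 2192 bp wide. Each bar is a deposited peak. ASH2 bars lie at different places in the band. H3K36me3 bars reach past an edge of the band, lie within it or are absent from it.

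The 55 wide peaks with neither ASH2 nor H3K27me3 were the nearest relatives by width (median 1494 bp). Ser5P was less frequent at them, 25.5% (14 of 55, 14.7 to 39.0) against 57.4% with ASH2. Ser2P (56.4%, 42.3 to 69.7) and H3K36me3 (81.8%, 69.1 to 90.9) had intervals that overlap those of the peaks with ASH2. They were more often under H3K36me3 over at least 90% of their bases, 65.5% (36 of 55, 51.4 to 77.8) against 23.9% (110 of 460, 20.1 to 28.1). Among all H3K4me3 peaks that share was 12.1%. At the 55 peaks, Ser5P, Ser2P and H3K36me3 cover, where present, had medians of 98.3, 96.1 and 92.1%.

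Outside their edges, the broad peaks had more Ser2P, H3K36me3 and Ser5P within 1 kb, and the groups were closer at 2 to 5 kb. Within 500 bp of an edge, Ser2P covered 18.0% of bases (arms 16.1 to 21.8) against 8.79% beside the narrower peaks (8.59 to 8.90), and H3K36me3 31.3% (26.0 to 35.2) against 20.1% (17.1 to 21.3). At 2 to 5 kb the shares were 15.6 against 12.4% and 29.9 against 26.2%, with overlapping ranges over arms. ASH2 covered 26.7% within 500 bp and 14.2% at 2 to 5 kb (32.3 and 13.7% for the narrower peaks), and Ser5P 15.9 and 6.35% (11.6 and 6.30%). For Ser5P within 500 bp, the ranges over arms overlapped (11.8 to 20.1 against 9.95 to 13.4). At 500 to 1000 bp, Ser5P covered 15.4% (arms 14.0 to 17.4) against 11.5% (11.2 to 12.1). H3K27me3, kept off the peaks by the rule, reached 3.32 and 3.65% at 2 to 5 kb. Against flanks of narrower peaks of at least 700 bp, the difference in H3K36me3 over 1 kb was 3.62 points in place of 9.33.

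The broad peaks lay next to each other about as often as narrower peaks lay next to them. A neighbouring H3K4me3 peak on either side was itself a broad peak with ASH2 for 63 of the 460 (13.7%, 10.7 to 17.2) and for 15.2% of the narrower peaks (14.1 to 16.4). Most stood alone in the order along the arm: there were 397 single ones, 27 runs of 2 and 3 runs of 3. Those 3 runs lay on 3R from 16383962 to 16405650 and on X from 10746795 to 10752992 and from 13500185 to 13510500. Another H3K4me3 peak lay within 1 kb of an edge for 58.3% of the broad and 58.2% of the narrower peaks, and the median gap was 703 bp (arms 476 to 1009) and 637 bp (558 to 764).

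The median distance to the nearest other broad peak with ASH2 was 45.5 kb from a broad and 61.0 kb from a narrower peak, and the order was not the same on all arms. It was 38.8 against 80.9 kb on 2L and 29.8 against 46.7 kb on X, but 73.8 against 43.3 kb on 2R. The gap to the nearest H3K27me3 peak had medians of 8292 and 8539 bp.

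Broad peaks made up a larger share of the peaks on X, and fewer of them had Ser2P. Of the X peaks with ASH2 and without H3K27me3, 14.4% were broad (106 of 734, 12.0 to 17.2), against 9.09% on the autosomal arms together (354 of 3895, 8.20 to 10.04) and 8.48 to 9.37% on each. Among H3K4me3 peaks of any kind, 14.9% on X and 8.4 to 9.2% on the autosomal arms were this wide. The higher share on X was thus not particular to peaks with ASH2. Ser2P was present at 45.3% of the broad peaks on X (35.6 to 55.3) and at 70.9% of those on the autosomes (65.9 to 75.6). H3K36me3 was present at 64.2% (54.3 to 73.2) and 76.0% (71.2 to 80.4), and Ser5P at 51.9 and 59.0%. For each the intervals overlap, which does not show that the shares are equal. ASH2 covered 40.8% of the bases of the broad peaks on X and 51.5% on the autosomes.

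The narrower peaks on X also had less Ser2P than those on the autosomes, 21.5% (18.3 to 24.9) against 28.1% (26.6 to 29.6). The Ser2P list as a whole was sparser on X, with 32.3 peaks per Mb against 36.1 to 54.3 on the other arms, and the H3K27me3 list denser, with 243 against 150 to 231. The part of these densities in the X values was not tested. Without X, the difference in Ser2P between broad and narrower peaks was 42.8 points. With 2000 bp as the width of a broad peak, X exceeded the autosomes by 1.16 points in place of 5.35.

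**Figure D5:**
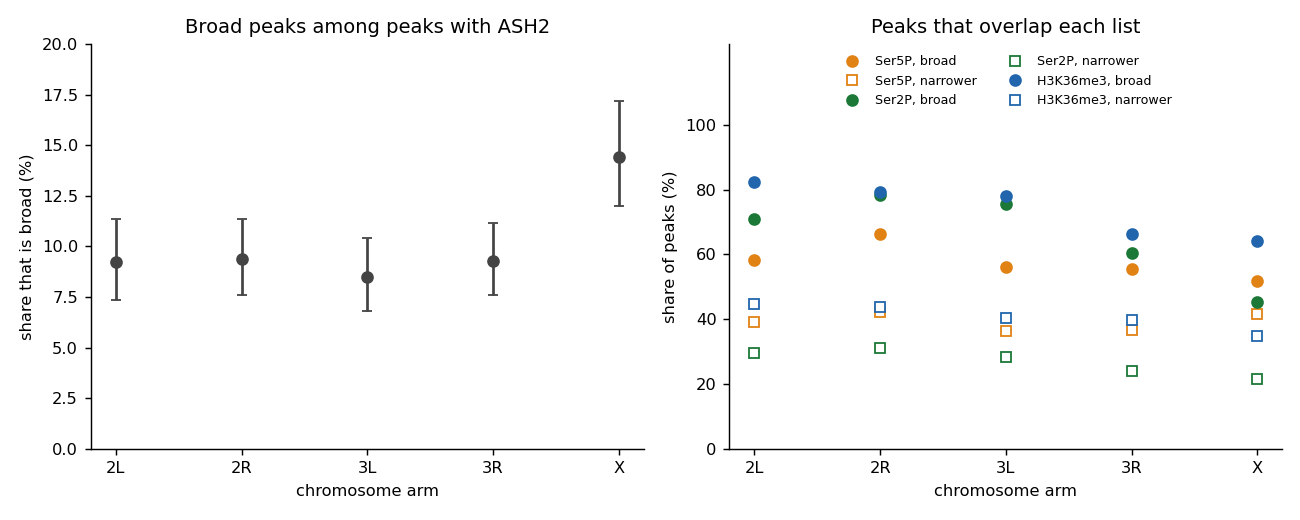
Left, share of H3K4me3 peaks with ASH2 and without H3K27me3 that were 1362 bp or wider (%), on each of the 5 chromosome arms, with exact 95% intervals. Right, share of broad (filled circles) and narrower (open squares) peaks that overlap each list (%). X has the highest share of broad peaks, 14.4%, and the lowest share of broad peaks with Ser2P, 45.3%.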

How the data were processed

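The authors deposited 1 list per target with the chromosome, start and end of each peak and no score. Positions are on dm3 per the submitters' processing notes. How reads were aligned and peaks called, at which threshold and whether against the input, is not given in the sources used here. Starts were raised by 1 bp for printing. Entries with a width of 0 bp (306 for ASH2, 2 for H3K4me3) counted as 1 bp in overlaps.

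A caller's threshold decides how wide a region is and where it breaks, so widths of different lists are not on a common scale. Read depth is unknown. The members and all measures were chosen with earlier results of these data known, including the width rule, which marks the widest 10% of the H3K4me3 list. Named positions followed a rule: the 5 widest members, the one with the most ASH2 peaks, up to 3 with the highest share under ASH2, the 3 longest runs, and 2 peaks on each side of the rule's width. Planned counts of annotated starts and of base composition were not made, since only a gene table of another build was at hand.

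Overlap meant 1 bp or more. Shares have exact 95% intervals, and differences of shares have Wald intervals. Where the intervals of separate shares overlap, the shares may still differ. Equal windows were the central 600 bp and the outer 300 bp at each end, and for peaks under 600 bp these reach past the peak or overlap. Flanks within 1 kb decided the sides with H3K36me3. No p-value was computed, since the peaks of 1 library, often close together, do not stand for replicates. The interval arithmetic (Python 3.11.15, NumPy 2.4.6, pandas 2.3.3, SciPy 1.17.1) was tested on simulated lists.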

Additional observations from a re-analysis of the deposited data

How the results depend on the processing

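No paired analysis was possible because each target has 1 library and no test was made. In all, 226 values were recomputed under 18 alternatives, leaving out those that a setting could not move, and 176 of them moved by less than the 95% interval of the difference, the SD over arms or, for the number of broad peaks, 1.5 times. These limits can be wide. For the distance to the nearest broad peak the SD was 29.2 kb, larger than the difference of -15.5 kb. Joining H3K4me3 peaks within 200 bp gave 613 broad peaks, which also counts as unmoved. Of the settings, 16 were planned. The narrower peaks of at least 1100 bp, the central window with narrower peaks of at least 700 bp, and all alternatives for the X share and for ASH2 by side were chosen after seeing the data. Differences are broad minus narrower, in percentage points unless named otherwise, and the cause of each change was not tested, apart from fewer or more peaks by construction. The main values were 460 broad peaks, 18.4 for Ser5P, 37.9 for Ser2P, 32.3 for H3K36me3 and 15.2 for 2 or more ASH2 peaks by share of peaks. By base share they were -16.9 for ASH2, 14.0 for Ser5P, 25.9 for Ser2P and 22.2 for H3K36me3.

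With broad from 1000 bp there were 1465 broad peaks, and the differences were 26.8 for Ser2P and 9.38 for 2 or more ASH2 peaks, 20.2 and 28.9 for bases under Ser2P and H3K36me3, -0.712 ASH2 peaks per kb, 6.10 for flank bases under Ser2P and 35.2 for ASH2 on the side away from H3K36me3 (main 26.3). Other H3K4me3 peaks within 5 kb then turned from -0.0714 to 0.0101 per peak. With broad from 2000 bp there were 81 broad peaks, and the differences were 27.6 for Ser5P, 49.0 for Ser2P, 40.5 for H3K36me3, 23.9 for 2 or more ASH2 peaks, -0.721 ASH2 peaks per kb, 15.0 for flank bases under H3K36me3, -251 kb for the nearest broad peak (main -15.5), -0.229 neighbours within 5 kb and 1.16 for X against the autosomes.

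Narrower peaks of at least 700 bp gave 30.3 for Ser2P and 16.4 for H3K36me3 by share of peaks, -9.17, 19.7 and 9.19 for bases under ASH2, Ser2P and H3K36me3, -0.427 ASH2 peaks per kb (main -0.652) and 3.62 for flank bases under H3K36me3. In the central window the same group gave -9.83 for ASH2, 20.2 for Ser2P and 4.78 for H3K36me3. Narrower peaks of at least 1100 bp gave 7.90, 21.3 and 6.14 for Ser5P, Ser2P and H3K36me3, 10.6 for 2 or more ASH2 peaks, -2.61, 4.04 and 12.4 for bases under ASH2, Ser5P and Ser2P, -0.205 ASH2 peaks per kb, 3.87 and 1.71 for flank bases under Ser2P and H3K36me3, -0.121 neighbours and 9.51 for X. Bases under H3K36me3 turned to -0.765.

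The wider 50% of each partner list gave 27.1 and 38.8 for Ser5P and H3K36me3 by share of peaks, and 21.7 and 28.0 by bases. Joining H3K4me3 peaks within 200 bp gave 20.01 for bases under Ser2P and 21.2 for 2 or more ASH2 peaks. Pooled bases gave 16.0 for H3K36me3, and leaving out X gave 42.8 for Ser2P by share of peaks. An overlap of at least 100 bp, ASH2 peaks of at least 100 bp, no H3K27me3 peak within 500 bp, the central and end windows against all narrower peaks, and leaving out 2L, 2R, 3L or 3R moved none of the results computed under them beyond these limits. Without heights, replicates or depth, a list's lack of a peak does not show that a mark was absent.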
